A study of Mus musculus with 4 samples.

Results

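The surrogate light chain genes of the mouse are Vpreb1, Vpreb2 and Igll1, described here with their relative Vpreb3. They were taken by gene symbol from the deposited matrices, and each symbol had 1 row, which gave 4 of 32285 gene features. The data were single-cell RNA counts (10x Genomics, 3′ version 3.1 chemistry with barcoded antibodies) from Kit+ CD45.2+ bone marrow, taken at 10 weeks after transplantation. There were 4 libraries, 1 in each group: a library labelled control, one labelled Mll3 deleted, one Mll4 deleted, and one Mll3/4 deleted. Mll3 (Kmt2c) and Mll4 (Kmt2d) encode histone methyltransferases of the COMPASS family, and the title of the study names B-cell priming as one of the traits it followed. The strain, the deleting Cre, its promoter and the number of animals behind each library are not given in the sources used here.

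During B-cell development a precursor first rearranges its heavy chain gene. The VpreB protein, encoded by Vpreb1 or Vpreb2, and the λ5 protein, encoded by Igll1, then pair in place of a conventional light chain and carry the new heavy chain to the surface as the pre-B-cell receptor. Signals from this receptor drive a burst of division, after which the genes are silenced and a κ or λ light chain takes over. Vpreb3 encodes a protein related to VpreB that is held inside the cell, and its transcript stays on longer in the lineage.

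Igll1 (ENSMUSG00000075370) and Vpreb1 (ENSMUSG00000059305) are protein-coding genes on the minus strand of chromosome 16 of GRCm38, at chr16:16860671-16863985 and chr16:16868403-16870843, with a gap of 4418 bases. Vpreb2 (ENSMUSG00000059280) lies elsewhere on the same chromosome, on the plus strand, at chr16:17980428-17981273. Vpreb3 (ENSMUSG00000000903) lies on the plus strand of chromosome 10, at chr10:75943057-75949657. Positions are from GENCODE M21. Vpreb1 and Vpreb2 are near-identical copies: 739 of 759 aligned transcript bases (97.4%) and 193 of the last 200 bases (96.5%), where 3′ libraries read, were the same. Of the 90-base windows of the Vpreb1 transcript, 15.8% occurred unchanged in that of Vpreb2, so the division of reads between the 2 copies is uncertain. The 5′ end of Vpreb1 also overlaps Top3b on the opposite strand.

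The bases before each start site are shown because the copies shared their transcript sequence and yet had very different counts in 1 library. Sequences are from RefSeq on GRCm38.p6, read 5′ to 3′ on the strand of the gene and ending at the RefSeq start site, except that the Vpreb2 sequence ends where GENCODE starts its first exon. The RefSeq and GENCODE starts differ for other members too. The Vpreb1 and Vpreb3 stretches lie inside the GENCODE gene bodies given above, whereas the Igll1 stretch lies just before its gene body. Capitals mark matches, on either strand, to CCCNNGGG (the core of EBF sites), CAGGTG and CAGCTG (E-boxes), TGGGAA (the Ikaros core) and ATGCAAAT (the octamer). The octamer was added after the letters were seen. The Vpreb1 bases are chr16:16869256-16869505, the Vpreb2 bases chr16:17980315-17980427, the Igll1 bases chr16:16863986-16864235 and the Vpreb3 bases chr10:75948050-75948299.
Vpreb1: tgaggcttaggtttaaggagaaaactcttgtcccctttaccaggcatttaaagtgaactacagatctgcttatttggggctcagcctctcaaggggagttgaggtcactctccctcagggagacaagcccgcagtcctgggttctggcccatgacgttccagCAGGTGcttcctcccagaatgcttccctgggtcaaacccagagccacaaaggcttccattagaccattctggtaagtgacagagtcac
Vpreb2: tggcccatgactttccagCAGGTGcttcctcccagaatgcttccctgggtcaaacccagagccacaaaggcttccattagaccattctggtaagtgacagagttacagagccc
Igll1: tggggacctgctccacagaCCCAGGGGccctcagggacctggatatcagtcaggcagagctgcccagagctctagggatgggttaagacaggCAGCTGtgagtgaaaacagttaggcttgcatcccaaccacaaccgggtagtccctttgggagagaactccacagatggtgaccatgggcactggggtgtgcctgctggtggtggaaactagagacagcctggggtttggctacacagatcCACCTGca
Vpreb3: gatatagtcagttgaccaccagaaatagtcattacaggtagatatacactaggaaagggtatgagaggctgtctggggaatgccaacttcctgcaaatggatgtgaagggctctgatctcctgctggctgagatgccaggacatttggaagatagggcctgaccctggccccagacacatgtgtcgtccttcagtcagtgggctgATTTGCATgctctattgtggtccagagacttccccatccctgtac
The copies shared this stretch as well: 104 of 106 aligned bases were identical, from base 145 of the Vpreb1 sequence and base 1 of the Vpreb2 sequence, and both carried the CAGGTG E-box at the aligned place. Nearer its start, in bases that GENCODE places in an exon and that are not shown, Vpreb2 also held CAGCTG and TTCCCA, the reverse complement of TGGGAA, at 60 and 64 bases before the RefSeq start. The Vpreb1 window held neither, but in the alignment it ends at base 156 of the Vpreb2 window, and these matches begin at bases 191 and 187. The matching place in Vpreb1 was therefore not searched. Igll1 carried CCCAGGGG, CAGCTG and CACCTG, the reverse complement of CAGGTG. Vpreb3 carried ATTTGCAT, the reverse complement of the octamer. Matches of this kind are common. Among 32851 promoters of 300 bases (250 before and 50 after the start), 13.7% held CCCNNGGG, 20.2% CAGGTG, 16.3% CAGCTG, 25.6% TGGGAA and 1.74% the octamer. A match describes the letters and not binding.

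After filtering, the 4 libraries held between 5350 and 7146 cells and between 32777830 and 153615605 gene UMIs (unique molecular identifiers, each counting 1 captured transcript). Median depth was lowest in the library labelled Mll4 deleted, at 5142 UMIs per cell, against 9965 to 16963.5 in the others. Between 21 and 31 kept barcodes of a library were also kept in another, at most 0.256% of the smaller library of a pair. Levels are given as CPM (UMIs of the gene per 1000000 gene UMIs of the same cells). Over all kept cells, Kmt2c measured 47.9 CPM in control, 27.2 in Mll3 deleted, 59.2 in Mll4 deleted and 34.8 in Mll3/4 deleted. Kmt2c was thus lower in both libraries whose labels name Mll3 than in the others, and its 95% Poisson intervals did not overlap. Kmt2d measured 21.6 to 25.8 CPM and was lowest in Mll3 deleted, a label that does not name Mll4. Neither gene fell to 0 in any library. A 3′ count outside the deleted exons does not check a deletion, so the libraries are named by their labels. With 1 library a group, no test between groups was possible, and the effect of a deletion cannot be told apart from that of its library. The library labelled Mll4 deleted also stood apart in Xist, the RNA of the inactive X chromosome of female cells, at 0.519 CPM against 955 to 1839 CPM in the others, so that sex, depth and the deletion cannot be told apart in its differences from control. Intervals below are 95% intervals for counting error only: exact Poisson for a CPM, exact binomial for a share of cells and exact conditional binomial for a ratio.

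Cells were clustered without the 4 genes, so that cell class did not depend on them. The B-cell progenitor-like class held 467 of 7146 control cells (6.54%), 369 of 5860 in the library labelled Mll3 deleted (6.30%), 144 of 5350 in Mll4 deleted (2.69%) and 6831 of 6917 in Mll3/4 deleted (98.8%). Cd79a and Ebf1 are among the markers that named the class, so their presence in each library follows from the naming. Cd79a, the receptor's signalling chain, measured 1799, 1509, 1166 and 2998 CPM in control, Mll3, Mll4 and Mll3/4 deleted. The lineage factor Ebf1 measured 2587, 2102, 2238 and 1853 CPM in the same order. Other naming markers went both ways in Mll3/4 deleted against control, with Pax5 and Il7r higher and Dntt and Lef1 lower. The class was not made of the same clusters everywhere. In control, Mll3 deleted and Mll4 deleted it consisted almost wholly of clusters 0 and 16. In Mll3/4 deleted, 6825 of its 6831 cells were in clusters 23 to 26, led by Gria2, Rnase12, Prlr, Crip2 and Enpep, with at most 1 B-cell progenitor marker among the top 10 genes of a cluster. Clusters that come almost from 1 library may reflect that library, not a cell type.

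Over all kept cells, 3 of the 4 genes were far higher in the library labelled Mll3/4 deleted than in control, and Vpreb2 was lower. Vpreb1 measured 74.8, 64.7, 20.6 and 2774 CPM in control, Mll3, Mll4 and Mll3/4 deleted. Igll1 measured 27.4, 22.5, 11.9 and 1012 CPM in the same order. Vpreb3 measured 82.7, 85.4, 26.5 and 1909 CPM. Vpreb2 measured 8.60, 5.83, 0.946 and 0.863 CPM. Thus Vpreb1, Igll1 and Vpreb3 stood highest in Mll3/4 deleted and lowest in Mll4 deleted, whereas Vpreb2 was low in both of these libraries. Their like Vpreb2 values came from unlike mixes of cells, with 2.69% of cells in the B-cell progenitor-like class in Mll4 deleted and 98.8% in Mll3/4 deleted. Within that class Vpreb2 measured 81.1 CPM in Mll4 deleted and 0.883 CPM in Mll3/4 deleted.

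In log2 ratios to control, Mll3/4 deleted gave 5.21 for Vpreb1, 5.21 for Igll1, 4.53 for Vpreb3 and -3.32 for Vpreb2. The 3 genes past a 2-fold difference upward compare with 12.0% of 15158 genes, and the 1 gene past it downward with 11.7%. Vpreb1, Igll1 and Vpreb3 ranked 63, 64 and 98 from the highest ratio. The 4 genes summed were 29.4-fold higher (log2 4.88, interval 4.86 to 4.90). The size of this ratio depended on how cells were summed: it was 3.01 as the mean of each cell's share of UMIs and 3.05 after every cell was thinned to 2000 UMIs. In Mll4 deleted all 4 genes were past 2-fold lower, which 2.91% of 14452 genes were, and none was higher, as 5.74% of genes were. Vpreb2 ranked 8, Vpreb1 20 and Vpreb3 46 from the lowest ratio there, and Igll1 ranked 243. The summed level was lower by log2 -1.69 (interval -1.75 to -1.62), or -3.58 after thinning. In Mll3 deleted no member passed 2-fold in either direction, against 0.199% of 14550 genes higher and 0.467% lower, and the summed log2 ratio was -0.12. In such sums over all cells, fewer B-lineage cells and less RNA per cell cannot be told apart, which the class below separates.

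**Figure D1:**
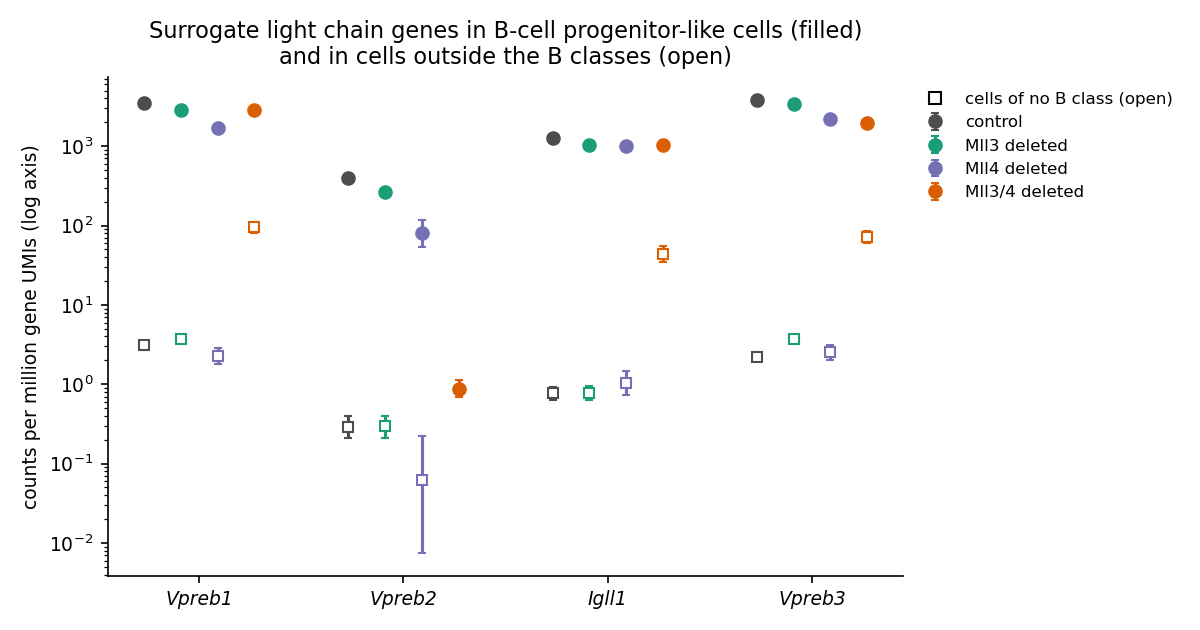
Level of each surrogate light chain gene, as CPM of gene UMIs on a log axis, by library (colours), in B-cell progenitor-like cells (filled circles) and in cells of no B class (open squares). Bars are 95% Poisson intervals, and a count of 0 (Vpreb2 in the 86 cells of no B class in Mll3/4 deleted) is not drawn. In B-cell progenitor-like cells Vpreb2 runs from 399 CPM in control to 0.883 CPM in Mll3/4 deleted, while the other genes stay between 999 and 3806 CPM.

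In the B-cell progenitor-like class the genes were among the most abundant transcripts. Vpreb3 ranked 40, Vpreb1 53, Igll1 120 and Vpreb2 320 by count in control, among 13966 genes with a count. UMIs count transcripts by their 3′ end, so these levels were not divided by gene length.

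Vpreb1, which encodes the main VpreB chain, measured 3461 CPM in control, 2873 in Mll3 deleted, 1684 in Mll4 deleted and 2836 in Mll3/4 deleted. It was therefore highest in control, lowest in Mll4 deleted, and in Mll3/4 deleted its interval (2824 to 2848) overlapped that of Mll3 deleted (2811 to 2935). The log2 ratio to control was -0.27 in Mll3 deleted (interval -0.31 to -0.23), -1.04 in Mll4 deleted (-1.16 to -0.92) and -0.29 in Mll3/4 deleted (-0.31 to -0.26). At least 94.4% of the class had a Vpreb1 UMI in every library.

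Vpreb2, the second VpreB copy, showed the widest differences of the 4. Its level was 399 CPM in control (interval 378 to 422; 1265 counts in 467 cells), 262 CPM in Mll3 deleted (244 to 281; 754 counts in 369 cells), 81.1 CPM in Mll4 deleted (54.3 to 116; 29 counts in 144 cells) and 0.883 CPM in Mll3/4 deleted (0.684 to 1.12; 67 counts in 6831 cells). No 2 of these intervals overlapped. The log2 ratio to control was -0.61 in Mll3 deleted (-0.74 to -0.48), -2.30 in Mll4 deleted (-2.88 to -1.77) and -8.82 in Mll3/4 deleted (-9.20 to -8.47), the last a level 0.00221 times that of control. Under 14 other ways of scaling, filtering and choosing cells the Mll3/4 ratio lay between -9.95 and -8.11.

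Few single cells of the class in Mll3/4 deleted held a Vpreb2 UMI. Whether the Vpreb2 sequence of these animals differs from the reference, which would bear on the reads assigned to it, was not tested. A UMI of Vpreb2 was found in 78.6% of control cells of the class, 65.6% in Mll3 deleted, 16.7% in Mll4 deleted and 0.586% (interval 0.419% to 0.797%) in Mll3/4 deleted. These cells differed in depth, with median UMIs of 4410, 6497, 2241 and 9936. At an equal 2000 UMIs per cell, which left out 30, 19, 70 and 83 shallower cells, the shares were 56.3%, 40.3%, 8.11% and 0.222%, in the same order. In cluster 16 alone they were 34.0% in control, 24.2% in Mll3 deleted and 6.90% in Mll4 deleted. In cells of no B class, 0.571% had a Vpreb2 UMI in control at a median of 16304.5 UMIs. In CPM, which allows for this depth, Vpreb2 in the class in Mll3/4 deleted (0.883, interval 0.684 to 1.12) was above that of these control cells pooled (0.293, interval 0.213 to 0.393). The pool was uneven: Vpreb2 measured 0.0851 CPM in erythroid-like cells. In HSC/MPP-like control cells (stem cells and multipotent progenitors) it measured 0.726 CPM (0.386 to 1.24), an interval that overlapped that of the class. Clusters 23 to 26 of Mll3/4 deleted alone measured 0.686 CPM (0.512 to 0.899). The 86 cells of no B class in Mll3/4 deleted itself held no Vpreb2 UMI, and their interval reaches 2.09 CPM. Most of the few positive cells there held 1 UMI (25 of 40) and none held more than 5, whereas in control 131 of 467 cells held at least 4 and the highest held 18.

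Among the genes compared in the class, Vpreb2 had the lowest Mll3/4 deleted to control ratio of all 13458, at -7.73 with 1 CPM added to both levels. The next lowest were Myl10 at -7.07 and Napsa at -6.58 on the same scale. Vpreb2 was the only member past 2-fold lower in this comparison, as were 7.39% of genes, and Vpreb3, at a log2 ratio of -0.96, lay just inside that bound. In Mll4 deleted, Vpreb1 and Vpreb2 were past 2-fold lower, as were 8.62% of 8721 genes. In Mll3 deleted no member was, against 1.85% of 8864. No member was past 2-fold higher in any of the 3 libraries.

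The 6 Mll3/4 deleted cells that fell in clusters 0 and 16 stood apart from the rest of their library. They held 15 of its 67 Vpreb2 UMIs, at 260.7 CPM (interval 146 to 430), close to the class in Mll3 deleted. The 6825 cells of clusters 23 to 26 held 52 Vpreb2 UMIs, at 0.686 CPM (0.512 to 0.899). The level of Vpreb1 was similar in both sets, at 2520.2 and 2836 CPM.

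The 2 copies thus kept no fixed proportion. The number of Vpreb1 UMIs per Vpreb2 UMI was 8.66 in control (interval 8.17 to 9.19), 10.96 in Mll3 deleted (10.2 to 11.8), 20.8 in Mll4 deleted (14.3 to 31.3) and 3212 in Mll3/4 deleted (2529 to 4145). In the last library Vpreb2 UMIs came to 0.0311% of Vpreb1 UMIs.

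Igll1, the λ5 gene, measured 1286 CPM in control, 1024 in Mll3 deleted, 999 in Mll4 deleted and 1035 in Mll3/4 deleted, so that control was highest on this scale. Its log2 ratios to control were -0.33 (interval -0.40 to -0.26), -0.37 (-0.53 to -0.21) and -0.31 (-0.36 to -0.27). The order of the libraries differed with thinning and with scale. At 2000 UMIs per cell Igll1 measured 1699, 1297, 878 and 1088 CPM in control, Mll3, Mll4 and Mll3/4 deleted, and the log2 ratio in Mll4 deleted was -0.95. Thinning left 74 of 144 Mll4 deleted cells, 58 of them in cluster 16, against 153 of 437 in control. In cluster 16 alone, thinned Igll1 measured 931 CPM in Mll4 deleted and 958 in control. The part of depth alone was not tested. As mean UMIs per cell Igll1 measured 8.72, 7.98, 2.48 and 11.5 in the same order of libraries, so that Mll3/4 deleted was above control. There were 2.69 Vpreb1 UMIs per Igll1 UMI in control, 2.81 in Mll3 deleted and 2.74 in Mll3/4 deleted, but 1.69 (1.48 to 1.93) in Mll4 deleted. The neighbours Vpreb1 and Igll1 therefore kept nearly the same proportion in 3 libraries, including the one in which Vpreb2 was almost absent.

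Vpreb3 measured 3806 CPM in control, 3444 in Mll3 deleted, 2204 in Mll4 deleted and 1951 in Mll3/4 deleted. The Mll3/4 deleted library was lowest in CPM, but Mll4 deleted was lowest at 2000 UMIs per cell, at 1716 against 2268 CPM, and as mean UMIs per cell, at 5.47 against 21.7. Of the 74 Mll4 deleted cells with 2000 UMIs, 58 were in cluster 16. The log2 ratios of Vpreb3 to control were -0.14 (interval -0.18 to -0.11), -0.79 (-0.89 to -0.68) and -0.96 (-0.99 to -0.94). Vpreb3 was more abundant than Vpreb1 in 3 libraries, and the order was turned in Mll3/4 deleted, with 1.45 Vpreb1 UMIs per Vpreb3 UMI against 0.909 in control.

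Summed over the 4 genes, the class measured 8952 CPM in control, 7603 in Mll3 deleted, 4968 in Mll4 deleted and 5822 in Mll3/4 deleted. The summed log2 ratio in Mll3/4 deleted was -0.62 (interval -0.64 to -0.60) in CPM but 0.09 as mean UMIs per cell, and its cells were deeper, at a median of 9936 against 4410 UMIs. On that per-cell scale Vpreb1 and Igll1 were higher in Mll3/4 deleted than in control, by log2 0.42 and 0.40, Vpreb3 was lower by -0.25 and Vpreb2 by -8.11. In Mll4 deleted the summed ratio was -0.85 in CPM and -1.58 after thinning to 2000 UMIs, which left 74 of 144 cells. Of these 74 cells, 58 were in cluster 16, against 153 of 437 in control, so the thinned sums also compared a different mix of clusters.

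**Figure D2:**
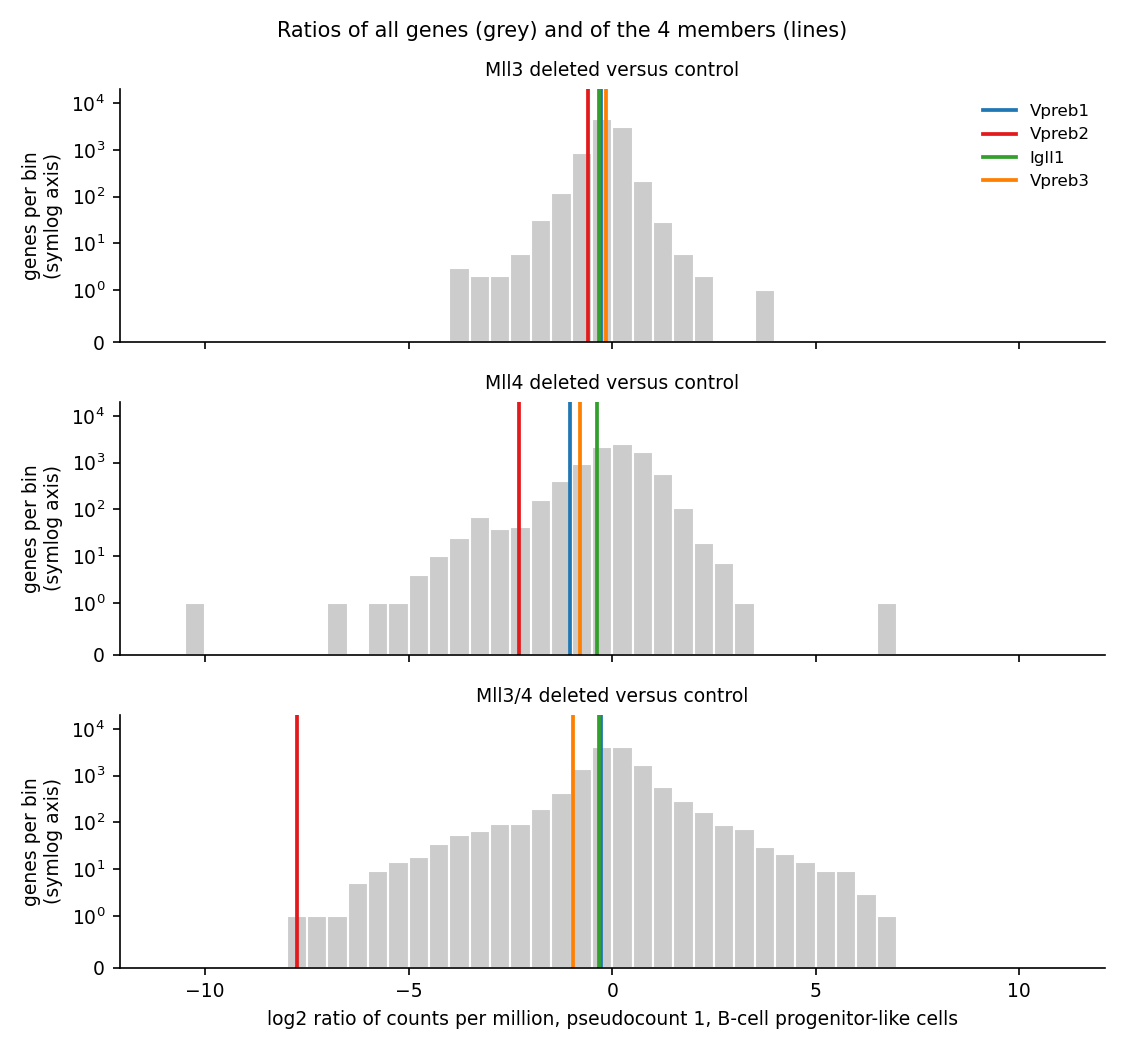
Distribution of log2 ratios to control of all genes compared in B-cell progenitor-like cells (grey bars, genes per bin on a log-like axis that starts at 0), with the 4 members as coloured lines, 1 panel per library. Ratios have 1 CPM added to both levels. Vpreb2 sits at the left end of the Mll3/4 deleted distribution at -7.73, while the other 3 members lie between -0.96 and -0.29 there.

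The members also differed by cluster, and the clusters differed in division. Cluster 16 (control, Mll3 and Mll4 deleted) and clusters 25 and 26 (Mll3/4 deleted) were high in the division list (Mki67, Top2a, Birc5, Ccnb1, Ccna2, Cdk1, Pcna, Mcm5, Mcm6 and Tyms), whose summed level was 6203 CPM in cluster 16 of control and 947 CPM in cluster 0. In control every member was lower in CPM in the dividing cluster: Vpreb1 measured 2156 against 5473 CPM in cluster 0, Vpreb2 209 against 694, Igll1 902 against 1880 and Vpreb3 2630 against 5620. The dividing cells were deeper, at a median of 11115.5 UMIs against 3409. As mean UMIs per cell the dividing clusters of control were not lower in Vpreb1 (26.9 against 21.8), Igll1 (11.2 against 7.49) or Vpreb3 (32.8 against 22.4), and Vpreb2 was close (2.60 against 2.76).

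Among dividing clusters, Vpreb1 and Igll1 were slightly higher in Mll3/4 deleted than in control, with log2 ratios of 0.22 (interval 0.17 to 0.26) and 0.26 (0.19 to 0.34). Among the other clusters they were lower, at -0.87 (-0.91 to -0.84) and -0.89 (-0.95 to -0.83). Vpreb3 was lower in both, at -0.90 and -1.35. Vpreb2 was lower in both, at -9.95 with 5 counts in 1536 dividing cells and -9.19 with 62 counts in 5295 other cells. In CPM, the direction for Vpreb1 and Igll1 in Mll3/4 deleted therefore turned with the clusters compared, and that for Vpreb2 and Vpreb3 did not. Median depth was 14518.5 UMIs against 11115.5 in control in dividing clusters, and 9003 against 3403 in the others. As mean UMIs per cell, Vpreb1 and Igll1 were higher in Mll3/4 deleted in both sets. Vpreb1 measured 38.8 against 26.9 in dividing clusters and 29.4 against 21.8 in the others. Igll1 measured 16.8 against 11.2 and 9.96 against 7.49 in that order. The part of depth was not tested. In Mll3 deleted the dividing clusters gave log2 ratios in CPM of -0.08 for Vpreb1, -0.36 for Vpreb2, -0.14 for Igll1 and 0.08 for Vpreb3. The other clusters gave -0.36, -0.69, -0.46 and -0.31 in that order. In Mll4 deleted the dividing clusters gave -0.78, -1.55, -0.08 and -0.63, against -1.18, -2.83, -0.59 and -0.87 in the others.

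Within Mll3/4 deleted Vpreb1 ranged over the 4 clusters of the class from 2412 CPM in cluster 25 to 3230 CPM in cluster 26. Igll1 ranged from 974 CPM in cluster 24 (interval 962 to 986) to 1499 CPM in cluster 26 (1454 to 1544). Vpreb3 ranged from 1364 CPM in cluster 25 to 2614 CPM in cluster 23. Vpreb2 measured 1.23, 0.556 and 0.239 CPM in clusters 23, 24 and 25, on 33, 14 and 5 counts, and 0 in the 208 cells of cluster 26, where 3 counts would give 1.05 CPM and the Poisson interval reaches 1.29 CPM. No cluster of that library, other than the 6 cells in clusters 0 and 16, thus had Vpreb2 at the level of any other library.

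**Figure D3:**
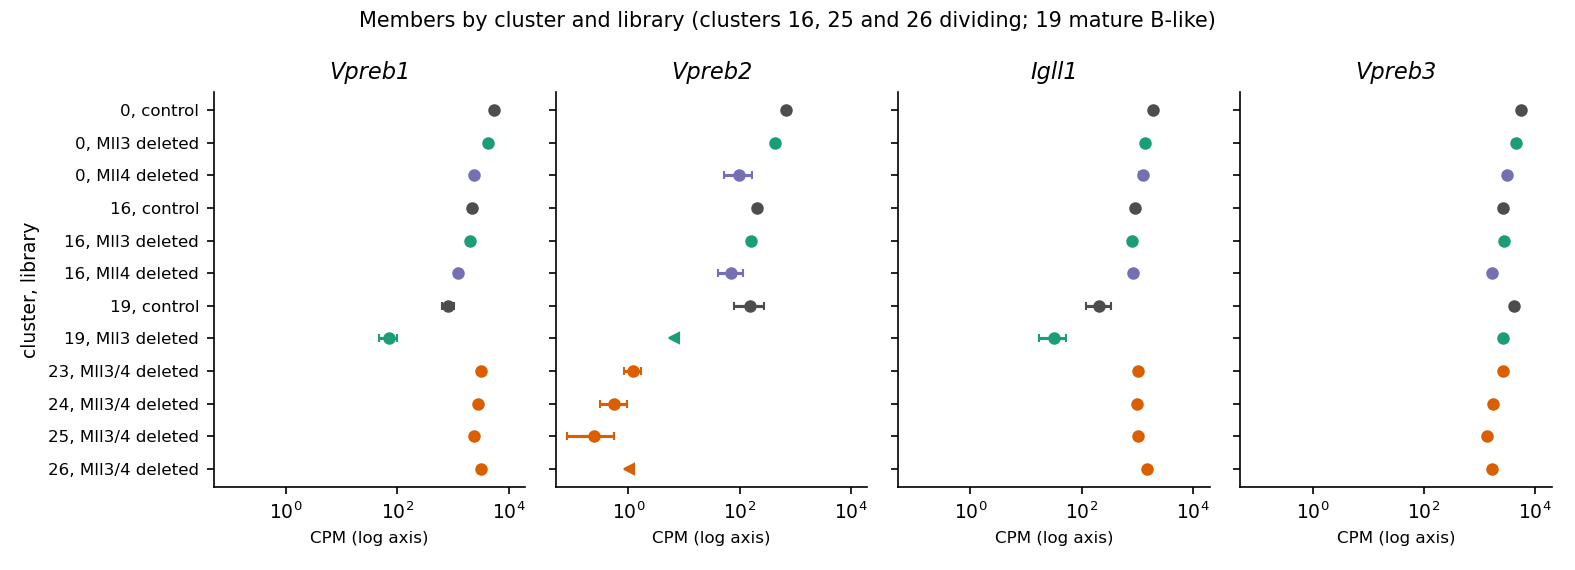
Level of each member, as CPM of gene UMIs on a log axis, by cluster and library (rows). Points carry 95% Poisson intervals, and a left-pointing triangle marks a count of 0, placed at the limit that 3 counts would give. Vpreb2 lies between 71.3 and 694 CPM in clusters 0 and 16 and at or below 1.23 CPM in clusters 23 to 26.

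The antibody counts, which were not used in clustering, gave a further axis. B220, the CD45 isoform of the B lineage, had a median of 203.5 antibody counts in cluster 0 of control and 12 to 15 in clusters 23 to 26, while CD117, the Kit protein used in the sort, had 54 and 215 to 377.5. In control all 4 genes were higher from each quartile of B220 to the next. Vpreb1 went from 2476 through 3281 and 4028 to 4606 CPM, Vpreb2 from 272 through 382 and 451 to 566, Igll1 from 1029 through 1281 and 1310 to 1678, and Vpreb3 from 2912 through 3596 and 4212 to 5038. Median depth went the other way, from 7565.5 to 3586 UMIs, and mean Vpreb1 UMIs per cell were nearly level, at 21.1, 23.3, 25.3 and 24.2. In Mll3 deleted the highest quartile exceeded the lowest for each gene, with Vpreb1 at 3516 against 2486 CPM and Vpreb2 at 347 against 215. In Mll3/4 deleted the order was reversed for Vpreb1, at 2519 against 3094 CPM, and Igll1, at 917 against 1115. Vpreb3 was nearly flat there, at 1890 against 2003 CPM, and Vpreb2 was between 0.455 and 1.31 CPM in each quartile. Median depth was higher in the highest quartile of this library, at 11709.5 against 8325 UMIs, and its part in the result was not tested. The quartiles of this library also divided low B220 counts, with cluster medians of 12 to 15 against 203.5 in cluster 0 of control. Whether they rank the protein or background was not tested.

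**Figure D4:**
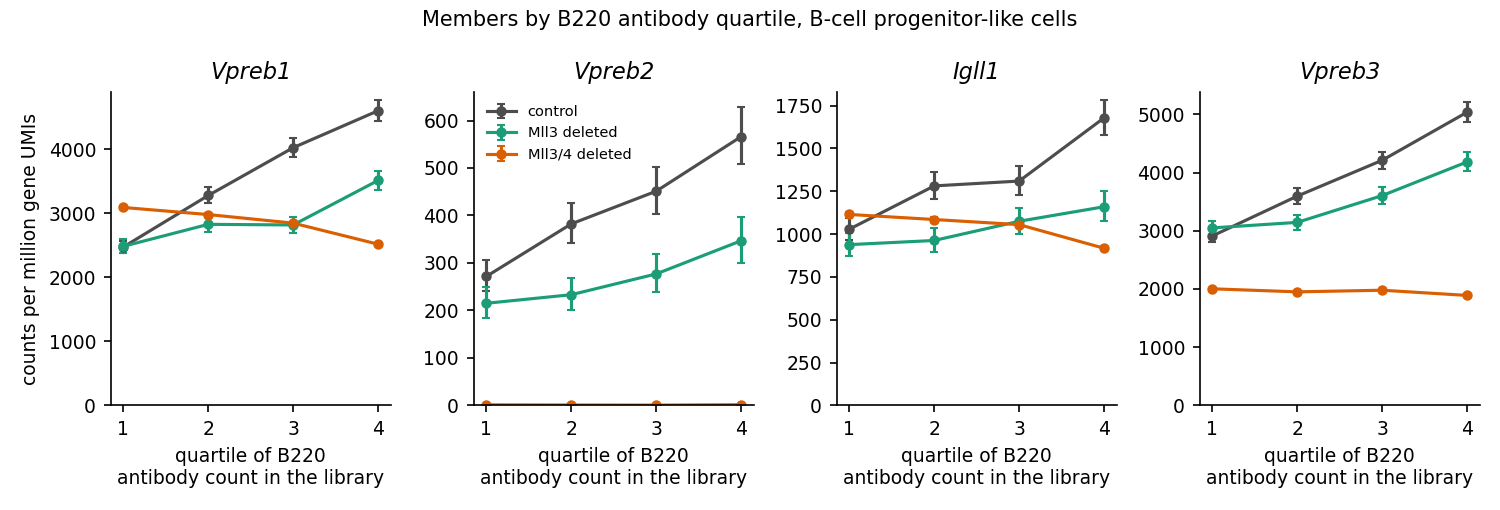
Level of each member, as CPM of gene UMIs, by quartile of the B220 antibody count within a library, in B-cell progenitor-like cells. Lines join the quartiles of a library and bars are 95% Poisson intervals. Mll4 deleted, with 144 cells, is not shown. Control lines climb for all 4 members, from 2476 to 4606 CPM for Vpreb1, while Vpreb2 in Mll3/4 deleted lies on the axis.

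How many members a cell carried differed between the libraries. At 2000 UMIs per cell, all 4 were found in 51.7% of control cells of the class, 37.1% in Mll3 deleted, 6.76% of the 74 cells in Mll4 deleted and 0.163% in Mll3/4 deleted. The share with all 4 cannot exceed the share with Vpreb2, which was 8.11% in Mll4 deleted and 0.222% in Mll3/4 deleted. In Mll3/4 deleted 72.7% of cells carried 3 members, and 0.385% carried none. At that depth, Pearson's r across cells between Vpreb1 and Igll1 was 0.52 in control (437 cells), 0.51 in Mll3 deleted (350 cells), 0.19 in Mll4 deleted (74 cells) and 0.41 in Mll3/4 deleted (6748 cells). Over all cells of the class without thinning it was 0.62, 0.66, 0.24 and 0.67, so the place of Mll3/4 deleted among the libraries depended on depth. That between Vpreb1 and Vpreb2 was 0.36, 0.30, 0.035 and 0.014 at 2000 UMIs and 0.41, 0.39, -0.086 and 0.030 without thinning. At 2000 UMIs a Vpreb2 UMI was found in only 6 of 74 cells in Mll4 deleted and 15 of 6748 in Mll3/4 deleted. With so few positive cells r has little room to leave 0, and it does not describe co-expression there. All these values of r are descriptions, since the cells of a library share their preparation and differ in depth and division.

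The mature B-like cluster 19 gave the level after a conventional light chain is on. Its summed Igkc, Iglc1, Iglc2 and Iglc3 level was 7332 CPM in 23 control cells and 11404 CPM in 146 cells of Mll3 deleted, against 108 CPM in cluster 0 of control. In Mll3 deleted, Vpreb3 measured 2690 CPM and was found in 86.3% of these cells, whereas Vpreb1 measured 69.2 CPM (8.90% of cells), Igll1 31.3 CPM (2.74%) and Vpreb2 0. A limit of 3 cells with a UMI allows up to 2.05% of these cells, at a median of 2551.5 UMIs, and bounds detection and not expression. In control, Vpreb3 measured 4182 CPM (22 of 23 cells), Vpreb1 823 (7 cells), Igll1 209 (4 cells) and Vpreb2 157, on 12 counts in 3 cells. The surrogate chains proper were thus lower in cluster 19 than in cluster 0 in both libraries, and Vpreb3 was lower by less.

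Outside the B classes the members were low. In 6656 control cells Vpreb1 measured 3.11 CPM, Vpreb3 2.23, Igll1 0.765 and Vpreb2 0.293, and the corresponding values in Mll3 deleted (5345 cells) were 3.77, 3.75, 0.784 and 0.294. In Mll4 deleted (5203 cells) they were 2.28, 2.53, 1.05 and 0.0617. A Vpreb1 UMI was found in 7.76% of erythroid-like control cells, at a median of 46252.5 UMIs, and in 6.31% of HSC/MPP-like cells (stem cells and multipotent progenitors), at 13198.5 UMIs. The 86 such cells of Mll3/4 deleted, in a library made almost wholly of B-lineage cells, had 94.8 CPM of Vpreb1, 71.5 of Vpreb3 and 44.3 of Igll1, and no Vpreb2 count.

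The other parts of the receptor did not all follow the surrogate chains. Of 16 genes of the heavy chain and receptor signalling list, 9 were past 2-fold lower and none higher in the class in Mll3/4 deleted (median log2 ratio -1.21, against 0.02 for all genes). Over all 13458 genes 7.39% were past 2-fold lower and 9.49% higher. Among them were the kinases Syk, Btk, Lyn, Blk and Prkcb, the phospholipase Plcg2, the adaptor Pik3ap1 and the exchange factor Vav1. Btk, for example, measured 78.3 CPM in control, 66.0 in Mll3 deleted, 64.3 in Mll4 deleted and 4.06 in Mll3/4 deleted, and Syk 112, 101, 92.3 and 26.9. The 4 most abundant genes of the list stayed within 2-fold in Mll3/4 deleted: Cd79a had a log2 ratio of 0.74, Ighm, the heavy chain, -0.11, Blnk, the adaptor below the receptor, 0.09, and Cd79b -0.52. In Mll3 deleted none of 15 measured genes passed 2-fold, and in Mll4 deleted Vav1 was higher, against 7.98% of genes, and none was lower.

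Of 15 measured factors known to act on these genes, Foxo1 was past 2-fold higher and Tcf3, Irf4, Irf8, Spi1, Spib and Bcl6 lower in Mll3/4 deleted (median -0.48). Over all genes 9.49% were past 2-fold higher and 7.39% lower. Ebf1, Lef1, Pax5 and Foxo1 had the most counts. Ebf1, an activator of the surrogate light chain genes, measured 2587 CPM in control and 1853 in Mll3/4 deleted (-0.48). Its partner Pax5 measured 244 and 368 CPM (0.59), Lef1 638 and 393 CPM (-0.70) and Foxo1 120 and 476 CPM (1.98). Tcf3, which encodes the E2A proteins that bind E-boxes, measured 228 CPM in control, 237 in Mll3 deleted, 341 in Mll4 deleted and 102 in Mll3/4 deleted. Irf4 and Irf8, which take part in silencing the surrogate chains, measured 38.8 and 81.1 CPM in control and 11.8 and 8.55 in Mll3/4 deleted. In Mll4 deleted, Irf4 and Bcl6 were past 2-fold higher and none lower (median 0.18), and in Mll3 deleted Bcl6 was lower, on 26 counts in control and 6 in Mll3 deleted. The shares over all genes were 7.98% higher and 8.62% lower in Mll4 deleted, and 1.85% lower in Mll3 deleted.

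Of 7 recombination genes, which cut and join the immunoglobulin loci, 1 was past 2-fold lower in Mll3/4 deleted (Lig4, from 33.5 to 15.8 CPM) and none higher (median -0.21), against 7.39% and 9.49% of all genes. The most abundant were Dntt, at 1245 CPM in control and 660 in Mll3/4 deleted, Rag1, at 325 and 388, Rag2, at 152 and 132, and Prkdc. Igkc was the 1 measured conventional light chain in that comparison, at 54.6 CPM in control and 12.7 in Mll3/4 deleted (-2.02). Of the early stage genes, Kit, Il7r and Flt3 were past 2-fold higher of 4 measured, against 9.49% of all genes, and Il7r measured 261 and 703 CPM. Of the 6 measured later stage genes, Btg1 was past 2-fold higher and Cd22, Igkc, Cd74 and H2-Aa lower, and of the 10 division genes Birc5, Ccna2 and Tyms were lower and none higher. The same shares of all genes, 9.49% higher and 7.39% lower, stand beside these counts.

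The neighbours of each member were compared in the same class. Within 100 kb of Vpreb2, 5 genes reached 20 counts in the comparison of Mll3/4 deleted with control. Their log2 ratios with 1 CPM added were -0.27 for Dgcr2, -0.44 for Ess2, -1.12 for Slc25a1, -1.39 for Dgcr6 and -3.80 for Prodh. Slc25a1, Dgcr6 and Prodh were thus past 2-fold lower, as were 7.39% of all 13458 genes. Vpreb2 had the lowest ratio of all genes compared, so its place below these neighbours was given in advance. Prodh, whose body lies 79084 bases away, measured 16.7 CPM in control (interval 12.5 to 21.9), 13.6 in Mll3 deleted (9.64 to 18.5), 2.80 in Mll4 deleted on 1 count (0.0708 to 15.6) and 0.277 in Mll3/4 deleted (0.171 to 0.423). Around Vpreb3 the ratios went both ways: Derl3 was higher at 3.60 and Mmp11 at 2.16, whereas Chchd10, 5310 bases from Vpreb3, was at -0.47 with 1724 CPM in control and 1247 in Mll3/4 deleted. Beside Vpreb1 and Igll1, Top3b was at 0.07 and Ppm1f at 1.38.

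**Figure D5:**
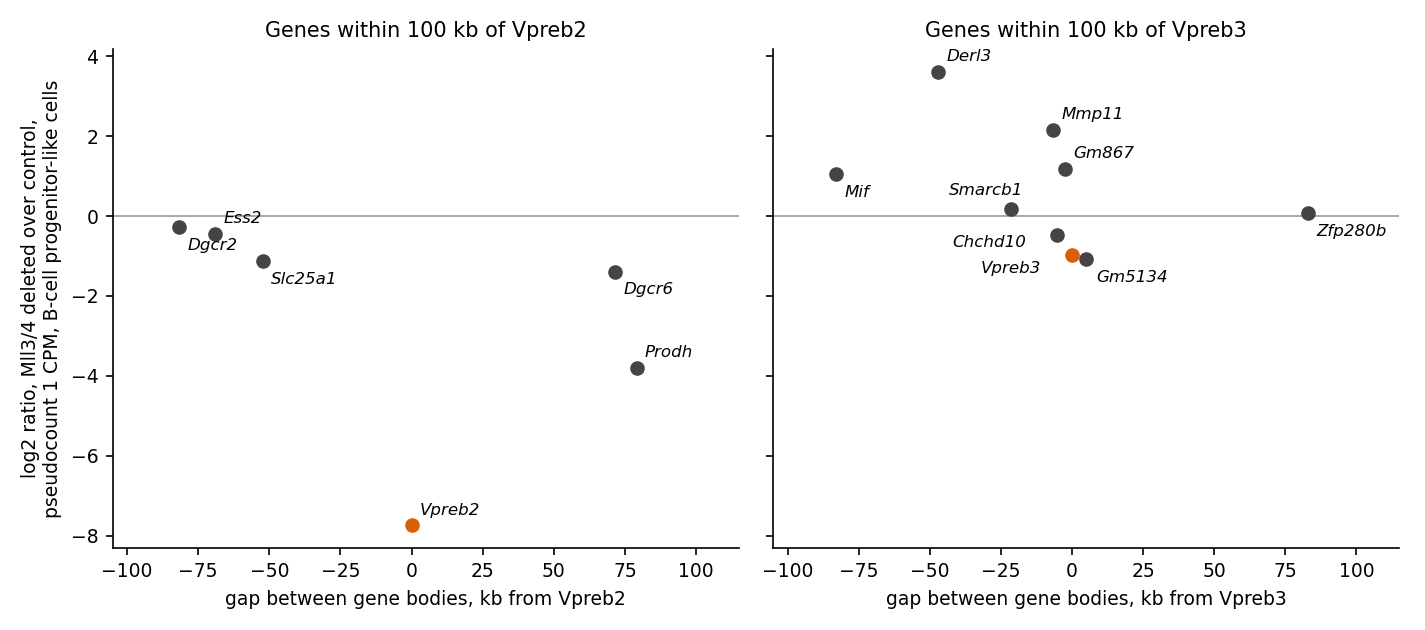
Log2 ratio of Mll3/4 deleted to control, with 1 CPM added to both levels, in B-cell progenitor-like cells, for genes with at least 20 counts lying within 100 kb of Vpreb2 (left) or Vpreb3 (right). The horizontal axis is the gap between gene bodies in kb, and the orange point is the member. Vpreb2 is at -7.73, the lowest ratio of all genes compared in the class, and Prodh at -3.80 is the lowest of its neighbours.

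By pattern over 32 sums of a cell class in a library, among 12787 genes, the genes most like Vpreb1 were Gfra1 (Pearson's r 0.95), Igll1 (0.95), 1700027J07Rik (0.95), Mzb1 (0.95) and Rag2 (0.94). Igll1 was most like Rag2 (0.97), 1700027J07Rik (0.97) and Rag1 (0.95), and Vpreb3 most like Ebf1 (0.97), Blnk (0.96) and Cd79a (0.95). Vpreb2 had other nearest genes: Tnfrsf19 (0.91), Gm39326 (0.91), Rsph9 (0.90), Ighg2b (0.90) and Mob4 (0.88). The sums share libraries, so these values are descriptions. Across the 6831 cells of Mll3/4 deleted, Vpreb1 was most like Igll1 (0.67), Vpreb3 (0.40), Dntt (0.29), Chchd10 (0.27) and Sdc4 (0.27). Vpreb3 was most like Vpreb1 and its neighbour Chchd10 (0.37). No gene exceeded 0.09 with Vpreb2, of which 6791 of the 6831 cells held no UMI, so r could hardly be high there.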

How the data were processed

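The data were gene and antibody counts per cell barcode, deposited by the authors as 1 matrix for each of 4 libraries. Per the submitters' processing notes, these UMI counts came from Cell Ranger 6.1.2 with mm10, and no further normalization is recorded. The 4 genes and all gene lists were chosen with earlier results of these data known.

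Cells with at least 500 genes, at least 1000 UMIs and at most 10% mitochondrial UMIs were kept, and the highest Scrublet scores were removed at 0.8% per 1000 barcodes. Cells were clustered with scanpy 1.11.5 (2000 variable genes, 30 principal components, 15 neighbours, Leiden resolution 1) without the 4 genes, Xist, Y-linked and mitochondrial genes. This gave 27 clusters, named from 123 markers of 13 classes. Raw counts were summed by class and library and divided by the summed gene UMIs (CPM). Ratios across genes had 1 CPM added and at least 20 counts in either library. Intervals (scipy 1.17.1) cover counting error only. TMM factors (edgeR 4.0.16) and size factors (DESeq2 1.42.0, R 4.3.3) served only as other scalings, and no count model was fitted. The calculations were tested on simulated data. Positions came from GENCODE M21, in which 32158 of 32285 gene IDs matched, and promoters from RefSeq.

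Genes named beside the 4 were the 4 of each list with the most counts in the class, list members past 2-fold, the 5 genes most like each member and genes within 100 kb. Examples outside this rule (Btk, Syk, Tcf3, Irf4, Irf8, Lig4, Il7r and the lowest ratios) were chosen after their values were seen. Antibody counts were used for quartiles of B220 and CD117 within a library and for median counts by cluster. Hashtag counts were used to group cells and, as an alternative, to leave out cells high in both. Other scalings, filters, doublet settings, cell classes and depths were tried as alternatives. Some single genes are not reported here.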

Additional observations from a re-analysis of the deposited data

How the results depend on the processing

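No paired analysis was possible because each group had 1 library, which also left no replicate to leave out. Values are log2 ratios to control of the 4 genes summed. Over all cells, Mll3 deleted (-0.12) became -0.075 with TMM factors, -0.052 with DESeq2 size factors, -0.17 as the mean of each cell's share, -0.16 with a stricter cell filter and -0.16 at 2000 UMIs per cell. Mll4 deleted (-1.69) became -1.79 with TMM, -2.24 as the mean share, -2.37 with the stricter filter, -3.58 at 2000 UMIs and -1.36 over all deposited barcodes. Mll3/4 deleted (4.88) became 4.83 with TMM, 3.01 as the mean share, 4.92 with no doublet removal, 4.85 without cells high in both hashtags, 4.91 with the stricter filter and 3.05 at 2000 UMIs. In the B-cell progenitor-like class, Mll3 deleted (-0.24) became -0.15 with TMM, -0.13 with DESeq2, -0.27 as the mean share, -0.27 at 2000 UMIs, -0.31 in a marker gate, -0.35 with mature B-like cells, -0.023 in dividing clusters, -0.37 in the others and -0.034 as UMIs per cell. Mll4 deleted (-0.85) became -1.10 with TMM, -1.08 with DESeq2, -0.97 as the mean share, -1.23 with the stricter filter, -1.58 at 2000 UMIs, -0.63 in the gate, -0.61 in dividing clusters, -1.0005 in the others and -2.30 as UMIs per cell. Mll3/4 deleted (-0.62) became -0.50 with TMM, -0.55 with DESeq2, -0.86 as the mean share, -0.56 with no doublet removal, -0.89 at 2000 UMIs, -0.79 in the gate, -0.24 in dividing clusters, -1.14 in the others and, reversed, 0.092 as UMIs per cell.

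Single genes that reversed were Vpreb3 in Mll3 deleted, over all cells with the stricter filter (-0.023) and in the class in dividing clusters (0.085) and as UMIs per cell (0.057). In Mll4 deleted, Vpreb1 (0.26) and Vpreb2 (0.12) reversed in the gate, which held 1 cell of that library and 7 of control. The gate values of every library, summed or single, rest on these 7 control cells. In Mll3/4 deleted, Vpreb1 (0.22) and Igll1 (0.26) reversed in dividing clusters, and as UMIs per cell (0.42 and 0.40). The causes were not tested. The division split and UMIs per cell were added after seeing the data. The ratio of Vpreb2 in Mll3/4 deleted did not reverse in any of 14 alternatives.

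Genes past 2-fold higher over all cells numbered 29 in Mll3, 829 in Mll4 and 1813 in Mll3/4 deleted, and 109, 1245 and 2842 with 0.1 CPM added. In the class they numbered 37, 696 and 1277. With no count minimum they were 200 in Mll3 and 1899 in Mll4 deleted, with a minimum of 100 counts 8 and 170, with TMM 324 in Mll4 deleted, and with 0.1 CPM added 2289 in Mll3/4 deleted. Depth limits Mll4 deleted most, with 144 cells of the class at a median of 2241 UMIs. Thinning to 2000 UMIs left 74 of them, 58 in cluster 16.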

Other observations

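Each library carried 2 hashtag antibodies, whose meaning is not given in the sources used here, so their values are listed without a comparison of groups. In the B-cell progenitor-like class, Vpreb2 measured 426 CPM in the 197 control cells of one hashtag and 380 CPM in the 268 of the other. It measured 234 CPM (224 cells) and 307 CPM (139 cells) in Mll3 deleted, and 59.2 CPM (65 cells) and 99.6 CPM (78 cells) in Mll4 deleted. In Mll3/4 deleted it measured 1.19 CPM (3673 cells) and 0.608 CPM (2979 cells), where Vpreb1 measured 2805 and 2872 CPM. The low Vpreb2 level of that library was thus found in the cells of each hashtag.

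By quartile of the CD117 antibody, control cells of the class showed no steady order, with Vpreb1 at 3267, 3391, 3700 and 3478 CPM and Igll1 at 1241, 1328, 1317 and 1258 CPM from the lowest quartile to the highest.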
